A study of Mus musculus with 27 samples.

Results

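The response of mouse mixed glia to bryostatin was compared between inflamed and non-inflamed cultures, using 24 of the 27 libraries of the series. The cultures held the glia of the cortex of C57BL/6 mice aged postnatal day 3 to 6, grown together for 14 days in vitro and treated for 24 h. Inflamed glia received LPS (100 ng/mL), alone or with IFNγ (20 ng/mL), each with and without 50 nM bryostatin. Non-inflamed glia received no stimulus or IL-4 (20 ng/mL), again each with and without 50 nM bryostatin. Every one of these 8 groups had 3 libraries of polyadenylated RNA. The members were found from the labels: 12 libraries were inflamed and 12 were not, and the untreated group left out was that of the experiment with LPS. All inflamed libraries came from experiment 1 and all non-inflamed libraries from experiment 2, so that inflammation and experiment cannot be told apart in any difference below. By the labels, each of the 4 bryostatin effects lay within 1 experiment.

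Bryostatin is a macrolide from a marine bryozoan that binds the C1 domains of protein kinase C and related proteins in place of diacylglycerol, and through them acts on ERK, AP-1 and NF-κB signalling. LPS acts through Toll-like receptor 4 and IFNγ through its own receptor, and both turn microglia and astrocytes to an inflammatory programme. IL-4 acts through STAT6 and turns microglia to alternative activation.

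Total counts ran from 17230058 to 28687281 per library, and 3 counts equalled 0.101 to 0.204 CPM (counts scaled to the library total with TMM factors). The untreated libraries labelled replicate 1 in each experiment stood apart from their own group. Apart from these, Sox10, which marks cells of the oligodendrocyte lineage, lay between 7.31 and 35.5 CPM in 14 libraries of experiment 1, and between 0.0339 and 0.469 CPM in 11 libraries of experiment 2. Untreated library 1 of experiment 2 had 36.8 CPM, within the range of experiment 1, and untreated library 1 of experiment 1, which entered no comparison here, had 0.166 CPM, within the range of experiment 2 (all 27 libraries scaled together). Over all genes tested, untreated library 1 of experiment 2 differed by a median of 0.413 (log2) from the other untreated libraries of its own experiment and by 0.325 from replicates 2 and 3 of experiment 1. For its counterpart in experiment 1 the values were 0.244 and 0.111. Whether these 2 labels are exchanged cannot be told from the labels themselves, and if they were, the effect of bryostatin alone would mix experiments. The main counts below include the library with its label, and counts without it stand beside part of them. The single effects, the comparisons between them and several gene lists are given only with it. Replicate 2 of bryostatin alone also stood apart, and the counts without both of these and replicate 2 of IL-4 with bryostatin are given too. By chi-square per gene between replicates, the one with IL-4 gave 23.5 and 12.6 against its group. Replicate 1 of LPS with IFNγ, which was kept, gave 23.4 and 15.6. All 3 libraries left out were non-inflamed.

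Bryostatin's mean effect differed between inflamed and non-inflamed glia in 1132 of 16466 genes tested, which is 6.87% (edgeR adjusted p under 0.05). The effect was higher with inflammation in 416 genes (2.53%) and lower in 716 (4.35%), and 316 of the 1132 differed by more than 2-fold. Over all genes tested the median difference was -0.012 (log2), so the contrast as a whole was centred near 0. Without untreated library 1 the numbers were 559 and 892, and without the 3 libraries 821 and 1047. Of the 1132 genes, 1079 were called again without untreated library 1 and 1038 without the 3 libraries, and none changed sign in either fit.

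Fewer genes were called for bryostatin in inflamed than in non-inflamed glia. The mean effect of bryostatin was called for 1598 genes (9.7%) in inflamed glia, 729 higher and 869 lower. In non-inflamed glia it was called for 3404 genes (20.7%), 1709 higher and 1695 lower. The median standard error of the mean effect was 0.124 (log2) in each state, but the fit gave all groups 1 shared spread per gene. Like standard errors therefore do not show that replicates varied alike in both states. Without untreated library 1 the numbers were 2384 and 3379 genes, and without the 3 libraries 3311 and 3798. By single effects, bryostatin alone was called for 1926 genes (11.7%), bryostatin with IL-4 for 1446 (8.78%), with LPS for 893 (5.42%) and with LPS and IFNγ for 416 (2.53%).

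The 2 effects within a state resembled each other more than effects across states. Of 853 genes raised by bryostatin alone (5.18%), 98.7% were also estimated higher with IL-4, where they had a median of 0.56 (log2), against 66.4% with LPS, with a median of 0.14, and 66.4% with LPS and IFNγ, with a median of 0.10. Of 1073 genes lowered by bryostatin alone (6.52%), 93.8% were estimated lower with IL-4, 84.5% with LPS and 79.9% with LPS and IFNγ. Over all genes tested, the effect was estimated higher in 49.4% with IL-4, 47.1% with LPS and 47.7% with LPS and IFNγ. It was estimated lower in 50.4%, 52.8% and 52.2%, in that order. Each of these effects has its own controls. Tested directly, the effect with LPS differed from that of bryostatin alone in 366 genes (2.22%) and from that with IL-4 in 515 (3.13%). The effect with LPS and IFNγ differed from them in 317 (1.93%) and 424 genes (2.58%). Within a state, the LPS and IFNγ effect differed from the LPS effect in 16 genes (0.0972%), and the IL-4 effect from that of bryostatin alone in 8 (0.0486%).

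The 1132 genes were sorted by which of the mean effects was called. A response was lost in 712 genes, called in non-inflamed glia only; 487 of these had risen and 225 had fallen there. In 561 of the 712 the 95% interval of the inflamed effect lay within 1.5-fold of no change. A response was gained in 221 genes, called in inflamed glia only, 118 upward and 103 downward, and in 173 of them the non-inflamed effect was bounded in the same way. It reversed in 88 genes, 69 of which rose in non-inflamed and fell in inflamed glia, while 19 did the opposite. It shrank with the same sign in 40 genes, grew in 23, and in 48 neither mean effect was called.

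**Figure D1:**
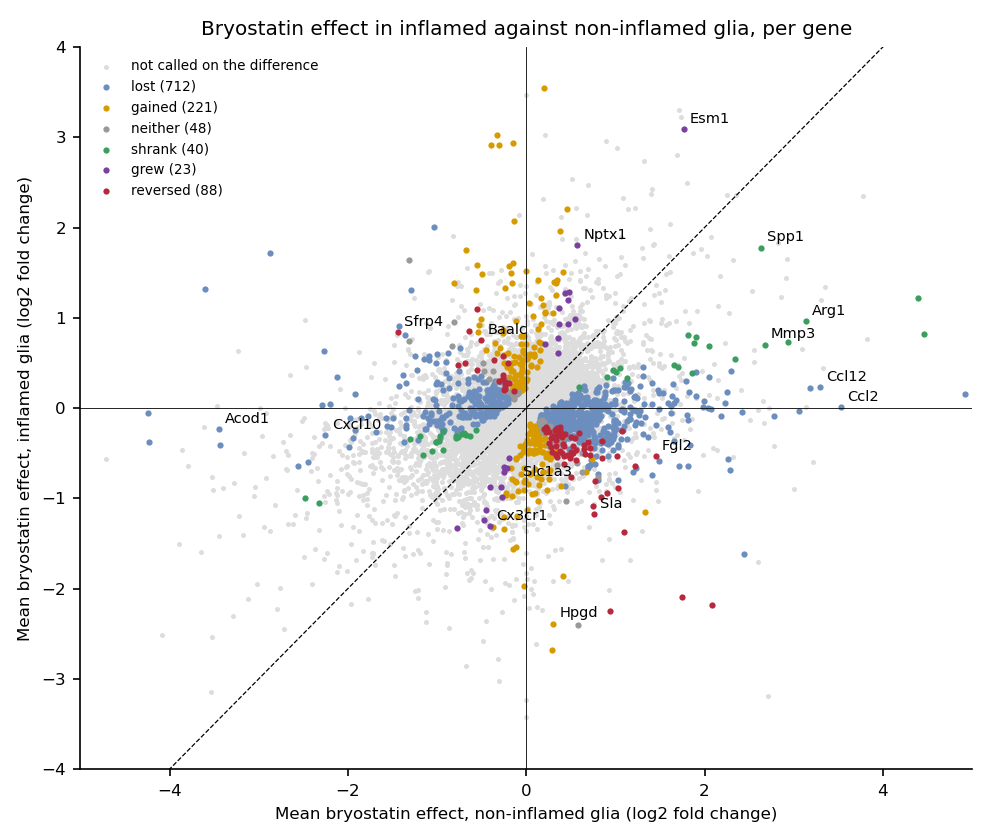
Each point is a gene, with the mean bryostatin effect in non-inflamed glia on the horizontal axis and in inflamed glia on the vertical axis (log2 fold changes). Colours give the class of the 1132 genes called on the difference, the dashed line marks equal effects, and genes beyond the axes are not drawn. The 712 lost genes lie along the horizontal axis, and the 88 reversed genes fill the upper left and lower right.

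Leaving out libraries changed these classes unevenly. Without untreated library 1, 755 genes were lost, 396 gained, 134 reversed, 65 shrank and 41 grew. Without the 3 libraries the numbers were 885, 541, 187, 112 and 56. Of the 88 reversed genes, 80 were again called reversed without untreated library 1 and 70 without the 3 libraries, and of the 712 lost genes 607 and 510 were again called lost.

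**Figure D2:**
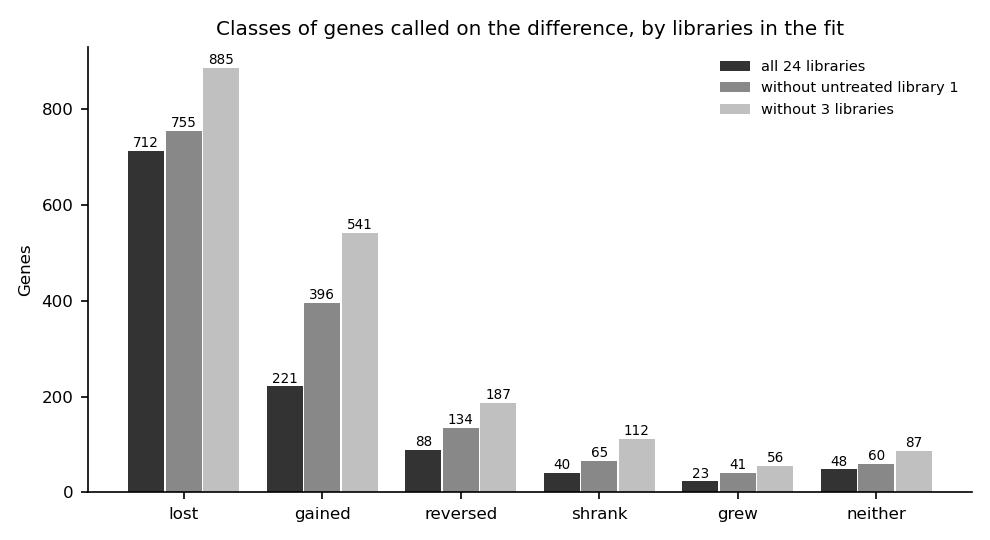
Bars give the number of genes in each class in the fit of all 24 libraries, without untreated library 1 of experiment 2, and without 3 non-inflamed libraries chosen after seeing the data. Every class has its lowest bar in the fit of all 24 libraries, and gained genes rise from 221 to 541.

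The CC chemokines, secreted proteins that draw monocytes and other leukocytes, gave the lowest differences of the gene lists. Of 14 tested members, 7 had a lower effect with inflammation and none a higher one, and all 7 were lost: Ccl2, Ccl7, Ccl12, Ccl3, Ccl4, Ccl6 and Ccl9. Over all genes tested 4.35% had a lower and 2.53% a higher effect. Counts of the lists below are to be read against these shares. The median difference of the list was -1.69 (log2), and -1.92 without 4 members that had 0 counts in a group, against -0.012 over all genes. All 7 lie on chromosome 11 (mm10), Ccl2, Ccl7 and Ccl12 between 82035571 and 82103400 and the other 4 between 83572919 and 83664683. Their protein sequences are related, and how reads shared between copies were counted is not given in the sources used here.

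Ccl2, the main attractant of monocytes, measured 2.32, 1.51 and 2.31 CPM in the 3 untreated libraries and 30.4, 31.5 and 22.5 CPM with bryostatin. With IL-4 the levels were 5.21, 7.44 and 10.8 CPM, and 63.4, 86.5 and 76.7 CPM once bryostatin was added. With LPS they were 708, 845 and 795 CPM without and 641, 748 and 680 CPM with bryostatin. With LPS and IFNγ they were 3828, 3484 and 3878 CPM without and 4073, 3963 and 4843 CPM with bryostatin. Every non-inflamed bryostatin library thus lay above its controls, while the groups with LPS overlapped and those with LPS and IFNγ did not; every inflamed library lay above every non-inflamed one. The mean effect was 3.53 ± 0.15 (log2, SE) in non-inflamed and 0.01 ± 0.12 in inflamed glia, and the difference was -3.52 ± 0.19 (edgeR adjusted p = 4.12e-10). On the linear CPM scale the sign is the opposite, since the mean of bryostatin minus control was 188 CPM greater in inflamed glia. The same holds for Ccl7, at 112 CPM.

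Ccl12, a second ligand of the receptor of Ccl2, also rose with bryostatin only in non-inflamed glia by the calls. Unlike Ccl2, it was lower with LPS and IFNγ than with LPS. Its libraries with LPS and IFNγ overlapped those with IL-4 and bryostatin. It measured 2.61, 2.37 and 2.64 CPM untreated against 20.0, 20.2 and 14.8 CPM with bryostatin, and 2.65, 3.23 and 3.31 CPM with IL-4 against 36.7, 45.8 and 40.0 CPM. In inflamed glia it measured 84.3, 94.9 and 74.0 CPM with LPS and 96.9, 107 and 90.3 CPM with bryostatin added, and 38.9, 41.9 and 35.7 CPM with LPS and IFNγ against 42.9, 41.1 and 54.8 CPM. The difference was -3.06 ± 0.14 (edgeR adjusted p = 4.13e-11).

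Ccl6, another CC chemokine, measured 1.77, 2.75 and 2.91 CPM untreated and 20.6, 31.4 and 25.99 CPM with bryostatin. In the inflamed controls its level was 6.13, 6.45 and 6.97 CPM with LPS and 1.18, 3.09 and 1.49 CPM with LPS and IFNγ. With IL-4 it was 9.63, 15.0 and 21.99 CPM, so that the LPS controls lay between the untreated and the IL-4 ones. Bryostatin raised it to 57.1, 74.3 and 78.6 CPM with IL-4, whereas with LPS and bryostatin it measured 6.35, 5.43 and 5.56 CPM and with LPS, IFNγ and bryostatin 2.01, 1.94 and 1.83 CPM. The difference was -2.87 ± 0.30 (edgeR adjusted p = 2.39e-06). For the other members it was -3.10 for Ccl7, -1.97 for Ccl9, -1.88 for Ccl3 and -1.68 for Ccl4, the second and the last being chosen after their values were seen. Ccl5, which lies between the 2 blocks on the chromosome and was also chosen afterwards, was not called in either direction (difference 1.00 ± 0.34, edgeR adjusted p = 0.0847).

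Lcn2, the siderophore-binding lipocalin of reactive astrocytes, was lost too. It measured 49.8, 23.1 and 22.9 CPM untreated, 50.4, 114 and 67.2 CPM with bryostatin, 9.36, 18.2 and 23.6 CPM with IL-4, and 42.1, 62.8 and 61.5 CPM with IL-4 and bryostatin. With LPS it measured 7224, 7057 and 7447 CPM, and 4372, 4296 and 4609 CPM with bryostatin added. With LPS and IFNγ the levels were 8615, 6767 and 7797 CPM, against 4778, 5518 and 6617 CPM with bryostatin. In inflamed glia all 6 bryostatin libraries lay below all 6 controls, but the mean effect of -0.58 ± 0.21 did not pass the threshold (edgeR adjusted p = 0.0943). The difference, -2.07 ± 0.31, did (edgeR adjusted p = 0.000198).

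Other inflammatory genes lost a fall instead. Cxcl10, a chemokine induced by interferon, measured 10.1, 4.53 and 4.67 CPM untreated against 1.66, 1.71 and 0.71 CPM with bryostatin, and 4.19, 6.15 and 5.02 CPM with IL-4 against 0.637, 1.19 and 1.48 CPM. With LPS it measured 1801, 2163 and 1812 CPM against 1081, 1539 and 1256 CPM with bryostatin, and with LPS and IFNγ 6933, 6497 and 6977 CPM against 6481, 6034 and 7508 CPM. The difference was 1.95 ± 0.29 (edgeR adjusted p = 0.000188), and the inflamed effect, -0.30 ± 0.16, was not bounded within 1.5-fold. Acod1, which makes itaconate, had a difference of 3.22 ± 0.49 (edgeR adjusted p = 0.00024), with at most 2.98 CPM in any non-inflamed library and at least 157 CPM in any inflamed one. With IL-4 and bryostatin it measured 0.0335, 0.162 and 0 CPM, at or below the level of 3 counts. Its fitted effect with IL-4, -4.78, is thus a ratio to a level of few counts. With bryostatin alone as the non-inflamed side the difference was 1.88 and not called (edgeR adjusted p = 0.089). For Cxcl10 and Acod1 the linear CPM difference has the opposite sign, -376 and -37.5 CPM.

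Among the interferon-stimulated genes, 3 of 34 had a higher and 1 a lower effect with inflammation, and 2 each way without untreated library 1. Among guanylate-binding and other IFNγ targets 1 of 24 went each way, and 1 higher and 2 lower without that library. With all 24 libraries, 11.8% and 8.33% of these lists were called in either direction, against 6.87% of all genes tested. The IFNγ targets were thus near the share of all genes. Ifit3b (0.83 ± 0.20) and Gbp3 (0.87 ± 0.13) fell with bryostatin only in non-inflamed glia by the calls, and each difference was called (edgeR adjusted p = 0.0115 and 0.000198). The call for Ifit3b ended in 4 refits, with edgeR adjusted p up to 0.084: with all 27 libraries, with either non-inflamed pair alone, and with LPS and IFNγ as the only inflamed pair. Il1b was called at the margin (0.90 ± 0.27, edgeR adjusted p = 0.0455), and its call ended in 23 of 34 refits, including that without untreated library 1 (edgeR adjusted p = 0.0939). No difference was called for Tnf (-0.60, 95% interval -1.11 to -0.09) or Il6 (-0.08, 95% interval -0.99 to 0.83).

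Cell cycle genes rose with bryostatin in non-inflamed glia. All 36 tested members were called higher in non-inflamed glia, where 10.4% of all genes were, and 5 of 36 in inflamed glia, where 4.43% were. Of the 36, 17 had a lower effect with inflammation and none a higher one, and all 17 were lost. The median difference was -0.549 (log2). Cdk1, the kinase that drives entry to mitosis, measured 34.6, 37.0 and 35.7 CPM untreated and 48.8, 56.5 and 48.5 CPM with bryostatin, and 33.8, 38.2 and 34.5 CPM with IL-4 and 52.9, 60.4 and 59.0 CPM with bryostatin added. With LPS it measured 20.0, 22.6 and 19.8 CPM against 19.6, 16.6 and 18.3 CPM, and with LPS and IFNγ 17.99, 17.4 and 15.8 CPM against 16.0, 15.4 and 17.9 CPM. The non-inflamed groups did not overlap, and bryostatin was the higher. With LPS the groups did not overlap either, but bryostatin was the lower, and with LPS and IFNγ they overlapped. Every inflamed library was below every non-inflamed one. The difference was -0.73 ± 0.09 for Cdk1 (edgeR adjusted p = 4.2e-05), -0.81 ± 0.10 for the spindle protein gene Tpx2, -0.86 ± 0.13 for the cyclin gene Ccnb1 and -0.50 ± 0.10 for the replication helicase gene Mcm3. RNA from bulk cultures does not tell fewer cells of a type from less RNA per cell.

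Genes of cholesterol synthesis went the other way. In non-inflamed glia 18 of 25 tested members were lower with bryostatin (10.3% of all genes) and none higher, while in inflamed glia 3 were lower (5.28% of all genes) and 1 higher. The effect was higher with inflammation in 13 of 25 and lower in none, with a median difference of 0.509. Without untreated library 1, 18 of 25 were called higher, and without the 3 libraries 20. Of the 13, 10 were lost and 2 shrank.

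Hmgcs1, which makes HMG-CoA at the head of the pathway, measured 273, 329.8 and 332 CPM untreated and 179, 168 and 176 CPM with bryostatin, and 359.6, 329.5 and 350.4 CPM with IL-4 and 166, 173 and 168 CPM with bryostatin added. With LPS it measured 371, 369 and 362 CPM against 309, 312 and 304 CPM, and with LPS and IFNγ 541, 583 and 583 CPM against 486, 431 and 503 CPM. All 4 comparisons lacked overlap, and the fall was -0.93 ± 0.06 in non-inflamed against -0.26 ± 0.05 in inflamed glia. The difference was 0.68 ± 0.08 (edgeR adjusted p = 1.02e-05). Cyp51, the lanosterol demethylase, fell by 0.54 in non-inflamed glia and had an inflamed effect of 0.07 ± 0.06, with a difference of 0.60 ± 0.09 (edgeR adjusted p = 0.000139). For the lanosterol synthase gene Lss the difference was 0.55 ± 0.10 (edgeR adjusted p = 0.000959), but it was not called with bryostatin alone as the non-inflamed side (edgeR adjusted p = 0.136).

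Fatty acid genes gave 3 higher and 1 lower of 14, against 2.53% higher and 4.35% lower over all genes. Scd2, a stearoyl-CoA desaturase, had a difference of 0.54 ± 0.08 and the desaturase gene Fads1 of 0.36 ± 0.08. Srebf1, a transcription factor of lipid synthesis, went against them: it fell by 0.38 in inflamed glia and had a non-inflamed effect of 0.00 ± 0.05.

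**Figure D3:**
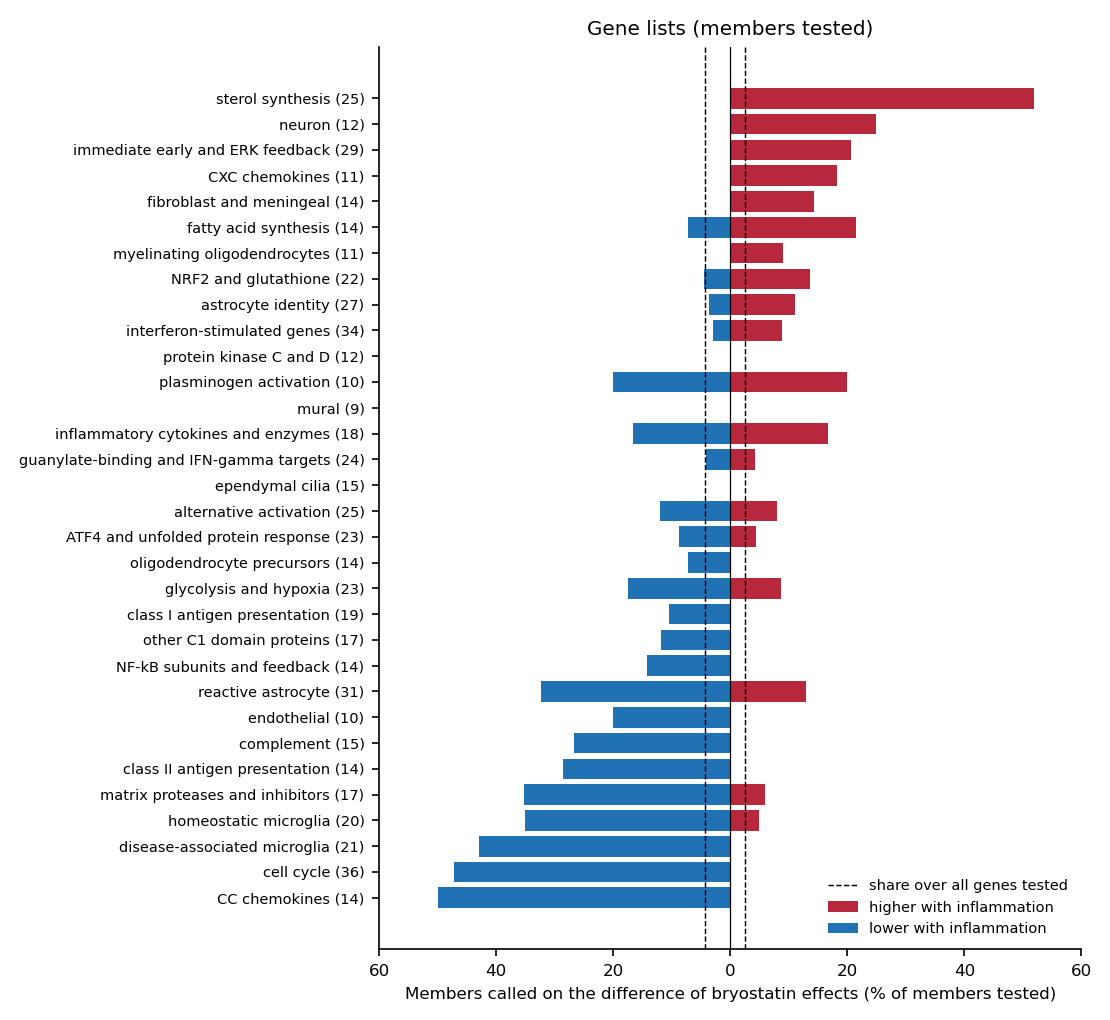
Bars give the percentage of tested members of each gene list (number in brackets) whose bryostatin effect was higher (right) or lower (left) with inflammation. The dashed lines mark the share over all genes tested, 2.53% and 4.35%. Sterol synthesis reaches 13 of 25 on the right, and CC chemokines 7 of 14 and cell cycle 17 of 36 on the left.

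Of the matrix proteases and their inhibitors, 9 of 17 tested were higher with bryostatin in non-inflamed glia, where 10.4% of all genes were, and 6 in inflamed glia, where 4.43% were. Of the 17, 6 had a lower effect with inflammation and 1, Mmp11, a higher one, and 5 and 2 without untreated library 1. The median difference was -0.024, or 0.051 without 2 members that had 0 counts in a group. Mmp3, Mmp10, Mmp12 and Mmp13 are neighbours on chromosome 9 between 7272514 and 7510240 (mm10). Mmp3, Mmp12 and Mmp13 shrank, and Mmp10 was called so only through a group with 0 counts, as given below. Mmp3 and Mmp13 are known targets of AP-1, the Fos and Jun transcription factor that protein kinase C turns on, so upstream sequences of this group are shown, with that of Plaur, the urokinase receptor gene that shrank too. The sequences are the 250 bases before the start of the gene, written in the direction of transcription, from RefSeq (GRCm38.p6, the build named mm10). Capitals mark the AP-1 motif TGANTCA, which reads the same on both strands.
Mmp3, chr9:7445572-7445821, plus strand: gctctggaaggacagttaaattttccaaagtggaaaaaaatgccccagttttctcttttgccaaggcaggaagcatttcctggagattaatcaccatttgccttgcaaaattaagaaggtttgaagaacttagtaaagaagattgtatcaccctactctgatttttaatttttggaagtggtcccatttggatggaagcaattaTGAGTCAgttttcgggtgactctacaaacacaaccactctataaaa
Mmp10, chr9:7502092-7502341, plus strand: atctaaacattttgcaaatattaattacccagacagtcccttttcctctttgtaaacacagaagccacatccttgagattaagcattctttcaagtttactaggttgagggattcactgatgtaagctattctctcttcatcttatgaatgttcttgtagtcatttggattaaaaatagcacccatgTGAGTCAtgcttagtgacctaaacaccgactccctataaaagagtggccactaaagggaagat
Mmp13, chr9:7272264-7272513, plus strand: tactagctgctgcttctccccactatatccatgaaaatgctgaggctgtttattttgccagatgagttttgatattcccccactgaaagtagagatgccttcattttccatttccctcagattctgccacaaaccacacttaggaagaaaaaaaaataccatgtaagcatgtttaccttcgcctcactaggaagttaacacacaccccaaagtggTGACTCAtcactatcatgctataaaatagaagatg
Plaur, chr7:24462233-24462482, plus strand: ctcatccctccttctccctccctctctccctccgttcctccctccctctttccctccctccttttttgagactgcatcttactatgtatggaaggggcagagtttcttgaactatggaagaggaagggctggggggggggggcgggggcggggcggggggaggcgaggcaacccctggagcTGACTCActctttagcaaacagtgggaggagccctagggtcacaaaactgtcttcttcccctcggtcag
Each of these windows holds 1 match, beginning 46, 63, 35 and 69 bases before the start. Of 2 starts listed for Mmp12, 1 has a match. The motif is found in 7.82% of the 27025 genes of the promoter table and in 6.08% of the 11992 genes tested that the table holds. It is found in 4 of the 12 members of the matrix protease list that the table holds, in 7 of 27 genes that shrank (25.9%), in 50 of 515 that were lost (9.71%) and in 6 of 66 that reversed (9.09%). Mmp3, Mmp10, Mmp12 and Mmp13 are the 4 of the matrix protease list, and with Plaur they are among the 7 that shrank. The group was picked for known AP-1 targets, so these 2 shares are not independent of that choice. No share was tested. It is also found in 15 of 169 gained (8.88%) and 1 of 16 that grew (6.25%). Among all genes raised by bryostatin in non-inflamed glia, 95 of 1297 hold it (7.32%). Of the lost chemokines, Ccl9 has a match in this window, and Ccl12, Ccl3 and Ccl6 do not. For Ccl2, Ccl7 and Ccl4 no single result is given. The table holds 8 of the 14 CC chemokines of the list, and 1 of these has a match.

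Mmp3, stromelysin, measured 8.33, 6.09 and 8.24 CPM untreated and 39.2, 58.0 and 38.7 CPM with bryostatin, and 4.24, 5.91 and 7.28 CPM with IL-4 and 40.1, 39.6 and 38.4 CPM with bryostatin added. With LPS it measured 606, 634 and 695 CPM against 892, 1026 and 960.1 CPM, and with LPS and IFNγ 507, 465 and 469 CPM against 764, 817 and 983 CPM. In all 4 settings the bryostatin libraries lay above their controls. The rise was 2.67 ± 0.12 in non-inflamed and 0.70 ± 0.11 in inflamed glia, a difference of -1.97 ± 0.16 (edgeR adjusted p = 2.07e-07). In linear CPM the rise was 309 CPM greater in inflamed glia.

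Mmp13, a collagenase chosen after its values were seen, measured at most 2.21 CPM in the non-inflamed controls and at least 87.6 CPM in the inflamed ones. It rose by 2.05 ± 0.21 and by 0.69 ± 0.12, a difference of -1.36 ± 0.25 (edgeR adjusted p = 0.00131). Its linear difference was 74.2 CPM the other way, and with bryostatin alone as the non-inflamed side the difference was no longer called. Mmp12, the macrophage elastase, rose from 27.8, 37.4 and 48.6 CPM to 146, 144 and 180.1 CPM with IL-4 and had a difference of -1.25 ± 0.19 (edgeR adjusted p = 0.000198). Mmp10, a second stromelysin, had 0 counts in all 3 untreated libraries and 0.674, 1.09 and 0.928 CPM with bryostatin, so its fitted effect there is no measure of fold. Against IL-4 as the only non-inflamed pair the difference was -0.50 and not called (edgeR adjusted p = 0.704). With LPS and IFNγ it rose from 2.29, 2.59 and 2.72 CPM to 7.62, 6.16 and 7.47 CPM.

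The plasminogen system gave 2 higher and 2 lower effects among 10 tested members, 4 and 2 without untreated library 1, and 5 and 2 without the 3 libraries. Plaur rose in every setting, by 1.81 ± 0.13 in non-inflamed and 0.81 ± 0.12 in inflamed glia (difference -0.997 ± 0.17, edgeR adjusted p = 0.000811). Plau, its protease ligand urokinase, rose from 17.9, 21.0 and 22.7 CPM to 81.9, 82.9 and 90.9 CPM with IL-4, and from 3.32, 2.77 and 1.95 CPM to 3.96, 5.59 and 3.65 CPM with LPS (difference -1.17 ± 0.18, edgeR adjusted p = 0.00028). Plat, the tissue-type activator, fell by 0.82 in non-inflamed glia and had an inflamed effect of 0.11 ± 0.08 (difference 0.93 ± 0.11, edgeR adjusted p = 2.38e-05).

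Further responses shrank among genes of microglia. Spp1, osteopontin, measured 298, 373 and 419 CPM untreated and 2037, 2419 and 2021 CPM with bryostatin, and 266, 332 and 442 CPM with IL-4 and 2140, 2240 and 2330 CPM with bryostatin. In glia given LPS it measured 345, 332 and 380.5 CPM against 1435, 1248 and 1496 CPM, and with LPS and IFNγ 99.4, 120.4 and 113 CPM against 314, 310.5 and 364 CPM. The rise stayed well clear of its controls in all settings, at 2.63 ± 0.11 and 1.78 ± 0.11 (difference -0.85 ± 0.15, edgeR adjusted p = 0.000793). Arg1, the arginase of alternative activation, rose by 4.45 with bryostatin alone, 1.82 with IL-4, 0.74 with LPS and 1.18 with LPS and IFNγ. In untreated libraries 2 and 3 it measured 0.162 and 0.165 CPM, the level of 3 counts. The rise of 4.45 is thus a ratio to a level of few counts. Its difference, -2.18 ± 0.27 (edgeR adjusted p = 3.42e-05), rests on bryostatin alone, for against IL-4 only it was not called (edgeR adjusted p = 0.0616). Ccr1, a chemokine receptor (-1.80 ± 0.18), and Hcar2, a receptor of hydroxybutyrate (-1.48 ± 0.14), shrank in the same way.

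Markers of disease-associated microglia were lower with inflammation in 9 of 21 tested members and higher in none, with a median difference of -0.438. Of the 9, 7 were lost, Lyz2 reversed and Spp1 shrank. Ch25h, cholesterol 25-hydroxylase, rose from 6.71, 15.0 and 11.3 CPM to 34.9, 31.6 and 29.3 CPM with bryostatin alone and from 9.21, 12.1 and 8.82 CPM to 75.5, 78.3 and 75.4 CPM with IL-4. In the LPS groups it measured 123, 130.3 and 126 CPM without and 127, 126 and 131 CPM with bryostatin (difference -2.17 ± 0.17, edgeR adjusted p = 1.45e-07). For Gpnmb, a lysosomal glycoprotein, the difference was -1.33 ± 0.17, and for the lysosomal marker Cd68 -1.15 ± 0.17. Complement receptors did likewise: C5ar1 gave -1.27 ± 0.16 and C3ar1 -0.75 ± 0.12, both lost, and in all 4 of 15 complement genes were lower with inflammation and none higher, with 7 lower without untreated library 1 and 4 without the 3 libraries.

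Of the 88 reversals, 69 were genes that bryostatin raised without and lowered with inflammation, among them genes of microglia and macrophages. Sla, an adaptor that dampens receptor signalling, measured 10.4, 11.4 and 11.6 CPM untreated and 19.5, 25.9 and 22.1 CPM with bryostatin, and 30.9, 33.3 and 39.5 CPM with IL-4 and 44.9, 46.4 and 56.2 CPM with bryostatin added. Under LPS it measured 33.7, 28.8 and 36.1 CPM against 16.1, 15.4 and 17.99 CPM, and with LPS and IFNγ 5.30, 7.005 and 7.96 CPM against 3.08, 2.64 and 2.10 CPM. No pair of groups overlapped: every bryostatin library was above its controls without inflammation and below them with it. The mean effects were 0.76 ± 0.10 and -1.18 ± 0.12, and the difference was -1.94 ± 0.16 (edgeR adjusted p = 1.46e-07). Fgl2, a prothrombinase-like protein of macrophages, rose by 1.45 ± 0.15 in non-inflamed glia and had -0.53 ± 0.15 in inflamed glia (edgeR adjusted p = 0.0255), with a difference of -1.98 ± 0.21.

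Other reversals with larger differences were Cd244a (-1.87), Rgs1 (-1.86), Rapgef5 (-1.82) and Klra2 (-1.58), several of them at a few CPM. Tnfsf8 (-2.48) measured at most 1.87 CPM in non-inflamed libraries, and its difference was not called with IL-4 as the only non-inflamed pair (edgeR adjusted p = 0.0633). Among well expressed genes, lysozyme, Lyz2, measured 1750, 1909 and 1806 CPM untreated and 2850, 3065 and 3018 CPM with bryostatin, and 1587, 1163 and 1372 CPM with LPS against 968, 837 and 845 CPM. Its mean effects were 0.65 ± 0.10 and -0.41 ± 0.10 (difference -1.06 ± 0.14, edgeR adjusted p = 7.81e-05). The inflamed mean joined an effect of -0.64 with LPS and a smaller one of -0.19 with LPS and IFNγ. Csf1r, the receptor on which microglia depend, had 0.28 ± 0.09 and -0.43 ± 0.09, a difference of -0.71 ± 0.12 (edgeR adjusted p = 0.000949). The macrophage receptor gene Adgre1 (-0.89), the kinase gene Btk (-1.15) and the leukocyte phosphatase gene Ptprc (-0.99), chosen after their values were seen, reversed in this direction too.

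The mean effects carried these calls more often than single effects did. Of the 69 genes that went from a rise to a fall, 34 had at least 1 single effect called on each side, and 3 had all 4, namely Sla and, named after their values were seen, Nfam1 and Ptpn1. Of the 19 genes in the other direction the numbers were 8 and 1, Baalc. H2-DMb1, a chaperone of class II loading, and Tgm2, a transglutaminase, were not called against bryostatin alone, and Tgm2 not with LPS and IFNγ as the only inflamed pair either.

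**Figure D4:**
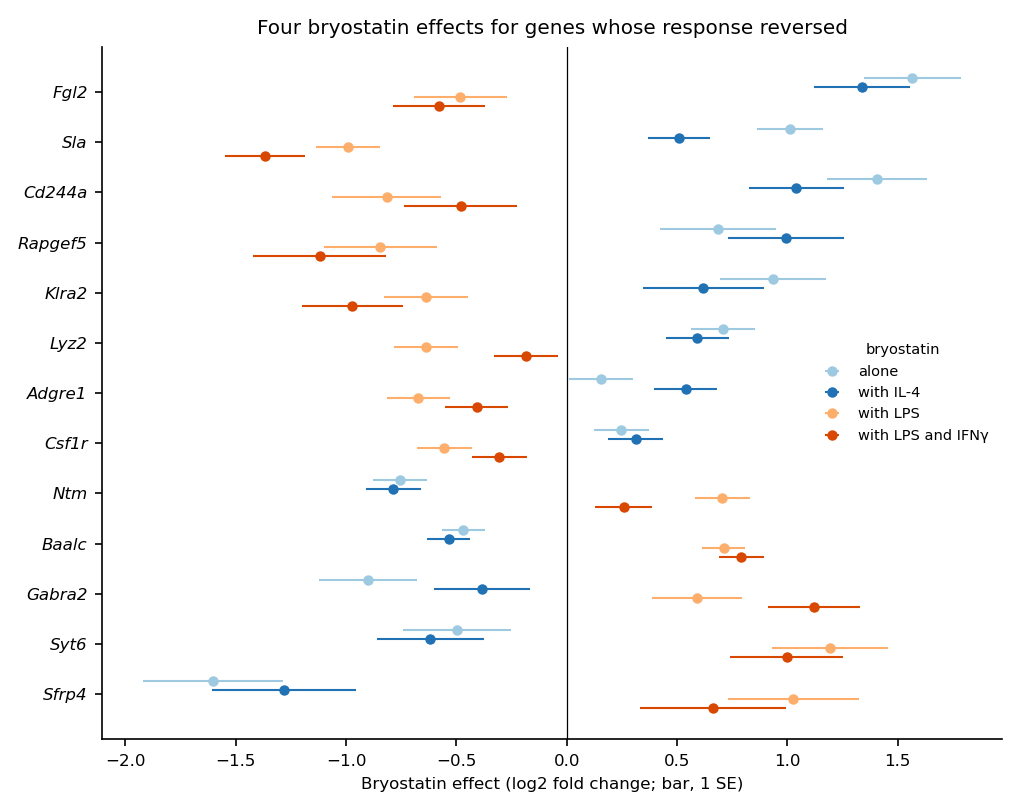
Points give the 4 bryostatin effects (log2 fold change, bar 1 SE) for 13 genes whose response reversed, blue in non-inflamed and orange in inflamed glia. The blue and orange points of each gene lie on opposite sides of 0.

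Other microglial markers did not show this reversal. Of 20 tested homeostatic microglia genes, 7 had a lower effect with inflammation, 1 (Csf1r) by reversal, and 1 a higher one. P2ry12, a purine receptor specific to microglia in brain, had mean effects of 0.02 ± 0.16 and 0.01 ± 0.22, and Fcrls, an Fc receptor-like gene, -0.09 ± 0.14 and 0.22 ± 0.15, both chosen after their values were seen. For Trem2, a microglial lipid receptor, the effects were 0.37 ± 0.15 and 0.04 ± 0.18. The summed level of the homeostatic list was 6680 to 7050 CPM untreated and 5100 to 6570 CPM with bryostatin, and 6100 to 6500 CPM with IL-4 and 5020 to 5460 CPM with bryostatin added. It was 4880 to 5140 CPM with LPS against 4400 to 5170 CPM, and 4550 to 4830 CPM with LPS and IFNγ against 3980 to 4650 CPM. The part of microglial number in the myeloid reversals was not tested.

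Genes that bryostatin lowered without and raised with inflammation were fewer. Baalc, a membrane-associated protein of astrocytes and neural cells, measured 104, 127 and 122 CPM untreated and 83.8, 87.2 and 84.0 CPM with bryostatin, and 131, 109.5 and 112 CPM with IL-4 and 83.0, 86.0 and 74.1 CPM with bryostatin added. In glia given LPS it measured 42.7, 39.2 and 39.1 CPM against 69.4, 69.5 and 59.1 CPM, and with LPS and IFNγ 32.6, 28.3 and 28.2 CPM against 51.7, 47.3 and 55.5 CPM. No pair of groups overlapped, and the highest inflamed level was below the lowest non-inflamed one. The difference was 1.25 ± 0.10 (edgeR adjusted p = 1.45e-07). Ntm, the adhesion protein neurotrimin, also gave 1.25 ± 0.13 (edgeR adjusted p = 1.65e-06), Gabra2, a GABA receptor subunit, 1.497 ± 0.21, and Syt6, a synaptotagmin, 1.65 ± 0.25. Sfrp4, a secreted Wnt antagonist, gave 2.29 ± 0.32, with 27.02 CPM in untreated library 1 against 9.01 and 9.12 CPM in the other two, and it was called in every refit, including that without this library.

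Few responses grew. Esm1, endocan, a proteoglycan secreted by stimulated endothelium, measured 0.887, 1.62 and 1.76 CPM untreated and 5.34, 4.67 and 4.26 CPM with bryostatin, and 1.30, 1.14 and 1.71 CPM with IL-4 and 4.26, 5.72 and 4.39 CPM with bryostatin added. In the LPS groups it measured 2.36, 3.88 and 2.40 CPM against 37.0, 30.7 and 33.6 CPM, and with LPS and IFNγ 2.16, 3.72 and 2.07 CPM against 16.2, 14.3 and 19.2 CPM. The inflamed bryostatin libraries were thus the highest of all. The rise was 1.77 ± 0.19 in non-inflamed and 3.09 ± 0.17 in inflamed glia (difference 1.32 ± 0.25, edgeR adjusted p = 0.0021), and the difference was not called with LPS and IFNγ as the only inflamed pair.

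Nptx1, neuronal pentraxin, rose from 53.6, 50.4 and 57.7 CPM to 229, 174 and 178 CPM with LPS and IFNγ and from 14.8, 15.4 and 15.9 CPM to 54.9, 57.5 and 44.4 CPM with LPS. In the non-inflamed libraries it stayed at or below 5.57 CPM, and the difference was 1.24 ± 0.18 (edgeR adjusted p = 0.000164). Mmp11, stromelysin 3, rose by 1.29 ± 0.08 against 0.48 ± 0.08, which sets it apart from the neighbouring proteases above (difference 0.81 ± 0.12, edgeR adjusted p = 0.000191). The secretogranin gene Scg2 (0.84 ± 0.20) and Ctgf, a matricellular protein of the YAP response (0.73 ± 0.17), also grew, and their untreated library 1 was the lowest of its group. Neither was called with bryostatin alone as the non-inflamed side or with LPS and IFNγ as the only inflamed pair (edgeR adjusted p from 0.118 to 0.132), and Ctgf not with all 27 libraries (edgeR adjusted p = 0.0517). Downward, Cx3cr1, the fractalkine receptor of microglia, measured 57.0, 50.4 and 54.5 CPM with LPS against 23.8, 17.8 and 20.2 CPM, and 179.8, 186 and 204 CPM untreated against 142, 184 and 166 CPM. Its fall was -1.31 ± 0.09 in inflamed and -0.41 ± 0.08 in non-inflamed glia (difference -0.90 ± 0.12, edgeR adjusted p = 9.82e-05), while in linear CPM the difference was 4.81 CPM the other way. The monocarboxylate transporter gene Slc16a1 fell by 0.87 and 0.41 (difference -0.47 ± 0.07, edgeR adjusted p = 0.000307).

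**Figure D5:**
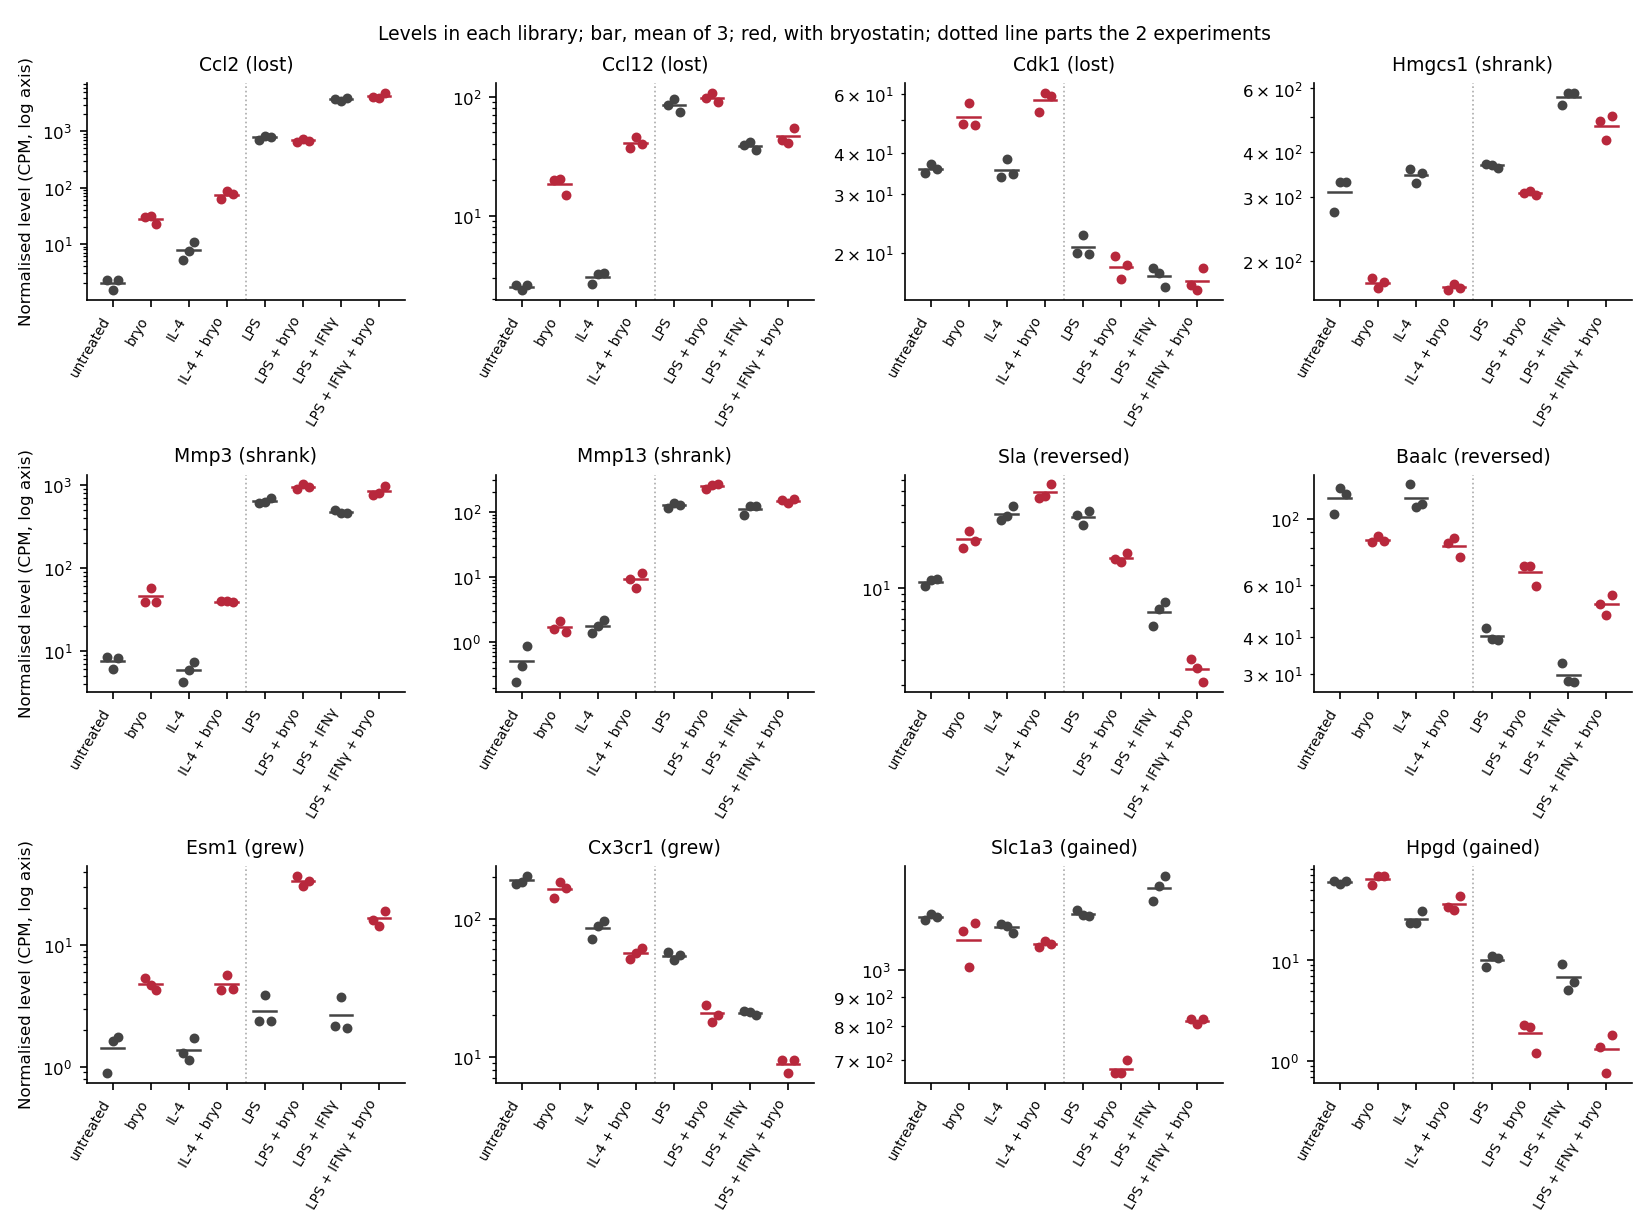
Each panel plots the normalised level (CPM, log axis) of a gene in the 24 libraries, with a bar at the mean of 3 and red for bryostatin; the dotted line parts experiment 2 (left) from experiment 1 (right). Ccl2 takes its largest steps up with bryostatin on the left, Slc1a3 and Hpgd take their largest steps down on the right, and Sla and Baalc step in opposite directions on the sides.

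Slc1a3, the astrocyte glutamate transporter GLAST, gained a response. It measured 1218, 1248 and 1235 CPM untreated and 1165, 1011 and 1206 CPM with bryostatin, and 1201, 1191 and 1158 CPM with IL-4 and 1097, 1121 and 1110 CPM with bryostatin added. Under LPS it measured 1268, 1243 and 1237 CPM against 664, 665 and 700.3 CPM, and with LPS and IFNγ 1312, 1395 and 1452 CPM against 823, 807 and 823 CPM. All 6 inflamed bryostatin libraries lay below every other library. The effect was -0.82 ± 0.05 in inflamed and -0.11 ± 0.05 in non-inflamed glia, and the difference was -0.71 ± 0.07 (edgeR adjusted p = 1.12e-06).

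Of 27 tested members of the astrocyte identity list, 22 were lower with bryostatin in non-inflamed and 18 in inflamed glia, and 1 was higher in each. Over all genes 10.3% and 5.28% were lower, and 10.4% and 4.43% higher. The difference was called for 3 upward and 1 downward, for 3 and 4 without untreated library 1, and for 4 and 4 without the 3 libraries. With all 24 libraries, it was called upward in 2.53% and downward in 4.35% of all genes. Gja1, connexin 43, fell by 1.02 in non-inflamed and 0.38 in inflamed glia (difference 0.64 ± 0.13, edgeR adjusted p = 0.00265), and glutamine synthetase, Glul, fell by 0.44 in non-inflamed glia only by the calls (difference 0.51 ± 0.08). With LPS as the only inflamed pair neither difference was called (edgeR adjusted p = 0.118 for Gja1 and 0.163 for Glul), nor was that of Gja1 with IL-4 as the only non-inflamed pair (edgeR adjusted p = 0.0525). For Aqp4, the water channel of astrocyte endfeet, the effects were -1.02 ± 0.11 and -1.03 ± 0.11, and the difference had a 95% interval of -0.32 to 0.30. For Gfap the interval was -0.07 to 0.46. Reactive astrocyte genes gave 4 higher and 10 lower of 31.

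Hpgd, which inactivates prostaglandins, measured 60.9, 57.1 and 60.8 CPM untreated and 56.4, 68.9 and 69.1 CPM with bryostatin. With LPS it fell from 8.66, 11.01 and 10.5 CPM to 2.28, 2.19 and 1.199 CPM, and with LPS and IFNγ from 9.16, 5.11 and 6.15 CPM to 1.39, 0.763 and 1.83 CPM. With IL-4 it measured 23.6, 23.6 and 30.7 CPM against 34.1, 31.4 and 43.8 CPM. The groups overlapped with bryostatin alone, parted upward with IL-4 and parted downward in both inflamed settings (difference -2.69 ± 0.23, edgeR adjusted p = 3.94e-07).

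Immediate early and ERK feedback genes had 6 higher and 0 lower of 29, with a median difference of 0.312. Over all genes 2.53% were higher and 4.35% lower. Without untreated library 1 the list's higher count was 10, and without the 3 libraries 12. Areg, an EGF receptor ligand, rose from 0.843, 0.728 and 0.557 CPM to 2.01, 3.81 and 2.62 CPM with LPS, with no change called in non-inflamed glia (difference 2.21 ± 0.53, edgeR adjusted p = 0.0121). That call ended with either non-inflamed pair alone and with LPS as the only inflamed pair (edgeR adjusted p from 0.0506 to 0.0781). Dusp5, a nuclear phosphatase of ERK, gave 0.71 ± 0.15 and the cytokine gene Lif 1.13 ± 0.23, and neither was called with bryostatin alone as the non-inflamed side, nor Dusp5 with LPS and IFNγ as the only inflamed pair. Fos fell in both states and less with inflammation (0.66 ± 0.11), though with LPS its effect was 0.00 and with LPS and IFNγ -0.62, and with the latter as the only inflamed pair the difference was not called (edgeR adjusted p = 0.182). Egr1, another of the 6 (0.99 ± 0.20), was estimated higher with LPS and lower with LPS and IFNγ. With the latter as the only inflamed pair its difference was 0.11 (edgeR adjusted p = 0.926). Nor was it called with bryostatin alone as the non-inflamed side.

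Some responses did not differ by this test. C3, the central complement protein, fell by 1.17 in non-inflamed and by 0.84 in inflamed glia, and the difference of 0.33 had a 95% interval of -0.07 to 0.74. Mrc1, the mannose receptor, rose by 1.36 ± 0.17 in non-inflamed glia and measured at most 0.951 CPM with LPS and IFNγ, so that its difference of -1.02 was imprecise (95% interval -1.93 to -0.12, edgeR adjusted p = 0.196). For Pdgfra, a receptor of oligodendrocyte precursors, the interval ran from 0.18 to 2.93 (edgeR adjusted p = 0.196), with 89.9 CPM in untreated library 1 against 5.18 and 5.22 CPM in the other two. Sox10 in inflamed glia measured 31.3, 35.2 and 34.8 CPM with LPS and 10.4, 9.35 and 8.07 CPM with bryostatin added, a lineage marker that the experiment 2 libraries other than untreated library 1 hold at 0.469 CPM or less. Its fall with LPS was not called, nor was its difference of 2.39 ± 1.67 (edgeR adjusted p = 0.511). Whether the makeup of the cultures has a part in these differences was not tested.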

How the data were processed

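Read counts per gene were deposited for 27 libraries of mouse mixed glia. Per the submitters' processing notes, the authors worked on mm10 with fastp, STAR and featureCounts; the sources used here give no versions. Deposited FPKM values were not used here. Libraries were grouped by their labels, and 24 entered the comparison. Genes were filtered with filterByExpr, scaled with TMM and fitted with edgeR 4.0.16 (quasi-likelihood, robust, R 4.3.3) over the 8 groups. The contrast was the mean of the bryostatin effects with LPS and with LPS and IFNγ minus the mean of those with no stimulus and with IL-4. Benjamini-Hochberg adjusted p-values ran over all 16466 genes tested, at 0.05. Log2 fold changes carry standard errors, and CPM values are on the TMM scale. The tests were checked on simulated counts. No source says whether the 3 libraries of a group came from separate cultures, so p-values measure only the spread between them, which may be technical. The library kit was read as unstranded, so overlapping and antisense genes cannot be told apart. DESeq2 1.42.0, other scaling, filters and subsets of libraries were alternatives.

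Genes were named by rank on the difference among protein-coding genes of at least 5 CPM in the highest group: the 8 highest and 8 lowest, 8 reversed each way, 6 of each other class each way, up to 4 called members of each list and a fixed set. Some genes are not reported here. The text names part of the rest, and says where a gene was chosen after its values were seen. Sox10 was also chosen so. The members and gene lists were chosen with earlier results of these data known.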

Additional observations from a re-analysis of the deposited data

Results flagged for a closer look

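The difference itself was tested for 416 genes with a higher and 716 with a lower bryostatin effect in inflamed glia (edgeR adjusted p under 0.05), and this contrast sets apart 2 experiments as well as 2 states.

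Within a state, 7 genes named here gave bryostatin effects that differed by the test of the difference. Ccl22, a chemokine of dendritic cells chosen after its values were seen, measured 5.85, 5.97 and 9.26 CPM with LPS against 0.923, 0.993 and 0.654 CPM with bryostatin added, and 41.7, 34.0 and 35.5 CPM with LPS and IFNγ against 46.3, 52.6 and 57.3 CPM. The effect with LPS and IFNγ minus that with LPS was 3.51 ± 0.42 (log2, edgeR adjusted p = 0.000514). Egr1, an immediate early transcription factor, rose by 0.77 with LPS and had -0.99 with LPS and IFNγ, a difference of -1.77 ± 0.28 (edgeR adjusted p = 0.0105).

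Among non-inflamed glia the effect with IL-4 minus that of bryostatin alone was -2.63 for Arg1, which had 0.690, 0.162 and 0.165 CPM untreated and 476, 539 and 632 CPM with IL-4. It was -1.65 for Cd74, the invariant chain of class II molecules, which measured 36.3, 49.0 and 52.4 CPM with IL-4 against 18.5, 18.9 and 18.5 CPM with bryostatin added. For Ccl4 it was 1.56 (edgeR adjusted p = 0.0306) and for Ch25h 1.39, both with a larger rise in the presence of IL-4. For Mmp10, with 0 counts in all untreated libraries, the fitted value of -5.36 is no measure of fold. Arg1, Cd74, Ch25h and Mmp10 each had an edgeR adjusted p of 0.0464.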

How the results depend on the processing

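The counts of higher and lower effects stayed within 1.5 times the reported 416 and 716 with DESeq2 size factors (405 and 732), without a filter on low counts (297 and 572), with all 27 libraries in the fit (323 and 662) and with the DESeq2 Wald test (593 and 913). Leaving out 1 library at a time gave 307 to 559 higher and 604 to 892 lower, 1232 to 2384 genes for inflamed and 2862 to 3851 for non-inflamed glia, the highest of the first 3 without untreated library 1. Without 3 libraries, chosen after seeing the data, 821 were higher and 3311 were called in inflamed glia. With 1 pair for a state, the higher count was 221 (IL-4 alone as non-inflamed), 191 (no stimulus alone), 225 (LPS alone as inflamed) and 230 (LPS and IFNγ alone), and the lower count 379 with no stimulus alone and 393 with LPS and IFNγ alone, in fits that use fewer samples. Replicate numbers did not pair the samples (same-number correlations from -0.441 to 0.278), and with the replicate block 358 were higher and 694 lower, 1493 and 3166 were called for the mean effects, and 989 of the 1132 genes were called again. Of 77 genes named here and called, 56 were called in all 34 refits and 76 in every fit that left out 1 library, the exception being Il1b. With IL-4 alone as non-inflamed the sign turned for Cd74 (0.0651) and Ccl22 (3.40, not called with all 4 effects). On the linear CPM scale, where a difference weighs absolute levels, it turned for Ccl2 (188), Ccl7 (112), Ccl3 (0.0237), Cxcl10 (-376), Acod1 (-37.5), Ifit3b (-42.0), Gbp3 (-59.6), Mmp3 (309), Mmp10 (2.16), Mmp13 (74.2) and Cx3cr1 (4.81). In these libraries 3 counts equalled 0.101 to 0.204 CPM, which limits what can be said of levels near there.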
